A study of Mus musculus with 8 samples.

Results

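Cib3, Lrtm2, Gldn, Syt14 and Rasl10b are 5 genes known mainly from nerve, muscle or the inner ear, out of 24451 genes in a table of liver RNA. They were chosen by their values in these same livers, as genes at or near 0 or low in the controls and raised in all knockout livers. Their difference between the groups is therefore given as a description, without a test. The intervals printed with it take no account of this selection, so that their distance from no difference is not evidence of one.

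The RNA came from the left lobe of the liver of 8 male C57BL/6 mice, 4 Brap LKO (Brap fl/fl; Alb-Cre+) and 4 Brap F/F (Brap fl/fl; Alb-Cre-), all of 18 wk of age and killed after 6 h without food. Both groups carried floxed Brap alleles, in which Cre removes exons 2 and 3. Cre was driven by the Albumin promoter, which is active in hepatocytes, so that the other cells of the liver were not the intended target, and no livers with Cre but without floxed alleles were analysed here. Each library held between 26280884 and 33313914 reads counted on genes. Values are normalized counts, the reads of a gene divided by a size factor for each liver, and 1 read was worth between 0.85 and 1.14 normalized counts. Nothing in the labels but the animal number says that the livers are separate mice, and the p-values below measure the spread between these 4 livers per group. Whole pieces of liver were sequenced, so more cells of a type and more RNA per cell cannot be told apart.

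Brap itself could not serve to check the groups, because its count covers the whole gene, and reads from exons outside the deletion can still enter it. Reads per exon and reads from cells without Cre were not separated. Its normalized count was between 3641 and 4203 in Brap LKO livers and between 3994 and 4410 in Brap F/F livers (log2 fold change -0.07 ± 0.07, SE, limma adjusted p = 0.631).

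Gliomedin, the product of Gldn, is secreted by Schwann cells and gathers sodium channels at the nodes of Ranvier of peripheral nerves. CIB3 is a calcium-binding protein that binds the transduction channel of hair cells in the inner ear, and LRTM2 is a membrane protein with leucine-rich repeats. SYT14 belongs to the synaptotagmins, most of which sense calcium when vesicles fuse with the membrane, but it lacks the residues that bind calcium. RASL10B is a small GTPase of the RAS superfamily. Outside the nervous system many neuronal genes are held silent by the repressor REST, and the Hippo pathway, which the study concerns, acts on transcription through YAP and the DNA-binding TEAD factors.

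The 250 bases before the annotated transcription start are shown for each of these genes that matched the RefSeq promoter table (GRCm38.p6, which is mm10). They are shown because the genes were higher in the same livers. Whether transcripts began at these starts in the livers was not tested. By symbol 4 of the 5 genes matched, all but Rasl10b, and Lrtm2 has 2 starts. The sequences run 5′ to 3′ on the strand of the gene. Capitals mark matches, on either strand, to the TEAD core GGAATG or to GGACAG, a piece of the REST element. No match to the other REST piece, CAGCACC, or to TATAAA was found in them.
Cib3: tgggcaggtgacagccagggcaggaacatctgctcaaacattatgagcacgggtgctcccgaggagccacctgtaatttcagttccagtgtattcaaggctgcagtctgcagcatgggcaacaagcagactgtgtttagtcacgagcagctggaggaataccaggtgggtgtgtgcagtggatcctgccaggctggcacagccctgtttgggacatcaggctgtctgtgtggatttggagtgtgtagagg
Lrtm2, inner start: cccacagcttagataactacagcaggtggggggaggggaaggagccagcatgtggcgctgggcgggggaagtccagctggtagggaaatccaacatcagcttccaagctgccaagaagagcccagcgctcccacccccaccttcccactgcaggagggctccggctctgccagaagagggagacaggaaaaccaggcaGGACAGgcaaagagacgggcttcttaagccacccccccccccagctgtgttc
Lrtm2, outer start: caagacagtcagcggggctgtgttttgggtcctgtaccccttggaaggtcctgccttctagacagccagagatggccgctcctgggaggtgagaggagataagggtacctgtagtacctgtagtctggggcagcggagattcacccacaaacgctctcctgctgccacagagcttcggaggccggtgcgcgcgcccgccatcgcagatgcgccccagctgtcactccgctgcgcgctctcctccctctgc
Gldn: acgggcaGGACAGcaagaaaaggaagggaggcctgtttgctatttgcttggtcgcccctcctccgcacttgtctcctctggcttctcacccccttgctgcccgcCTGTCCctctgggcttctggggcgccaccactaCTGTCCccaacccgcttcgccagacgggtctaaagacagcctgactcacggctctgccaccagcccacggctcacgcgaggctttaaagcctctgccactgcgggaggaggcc
Syt14: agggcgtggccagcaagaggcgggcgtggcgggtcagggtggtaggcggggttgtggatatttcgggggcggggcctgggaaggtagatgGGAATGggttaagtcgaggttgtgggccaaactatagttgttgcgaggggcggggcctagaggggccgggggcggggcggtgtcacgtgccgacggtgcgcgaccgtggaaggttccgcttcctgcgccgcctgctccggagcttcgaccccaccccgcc
The stretches lie at chr8:72212838-72213087 (Cib3, minus strand), chr6:119329205-119329454 and chr6:119330767-119331016 (Lrtm2, minus strand), chr9:54286236-54286485 (Gldn, plus strand) and chr1:193035776-193036025 (Syt14, minus strand).

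GGACAG stood 3 times in the promoter of Gldn and 1 time before the inner start of Lrtm2, and 18.7% of the 32851 promoters of the table hold it. GGAATG stood 1 time in the promoter of Syt14, from 160 to 155 bases before the start, and 12.6% of all promoters hold it. CAGCACC is present in 5.73% of all promoters and TATAAA in 12.4%. GC content ranged from 55.2% in Cib3 over 62.4% and 63.2% before the starts of Lrtm2 and 63.6% in Gldn to 69.2% in Syt14, against a median of 52.4%. The number of CG dinucleotides differed more widely, with 3 in Cib3, 5 and 15 in Lrtm2, 13 in Gldn and 25 in Syt14, against a median of 6 per promoter.

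Every Brap LKO liver lay above every Brap F/F liver for all 5 genes, the pattern for which they were selected. The same held for 841 (5.48%) of the 15352 genes tested. By limma at an adjusted p of 0.05, 102 (0.664%) of these genes were higher and 16 (0.104%) lower in Brap LKO livers, and the median log2 fold change of all genes tested was -0.01. An unadjusted p under 0.05 was found for 2429 genes (15.8%), and 48.0% had a log2 fold change above 0. On the recovered reads edgeR called 100 genes higher (0.712%) and 12 lower (0.0855%), and DESeq2 448 higher (2.73%) and 159 lower (0.97%), against which the counts for lists below are to be read. All 5 genes passed the minimum mean of 5 normalized counts for a test, but Lrtm2, Gldn and Syt14, with means under 5 in Brap F/F livers, did so only through the Brap LKO livers.

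Gldn lies on chromosome 9 (54286486 to 54341786, mm10) and its longest coding transcript has 10 exons. In Brap LKO replicates 1 to 4 its normalized counts were 168.5, 357, 285 and 841, and in Brap F/F replicates 1 to 4 they were 0, 1.02, 0 and 4.91, from 0, 1, 0 and 5 reads. The gene was at 0 or next to 0 without Cre, and its spread with Cre was the widest of the 5 genes, with 4.99-fold between the lowest and the highest liver. The lowest Brap LKO liver was 34.3-fold above the highest Brap F/F liver. On the log2(normalized count + 1) scale the group means differed by 7.55 (95% interval from limma 6.11 to 8.98). Like the intervals of the other genes below, this one describes spread only and ignores the selection by the same values. The ratio of the plain means, 279, rested on few control reads, since it was 1218 without Brap F/F replicate 4, the liver with 5 of the 6 control reads, and 182 without Brap LKO replicate 4.

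Syt14, on chromosome 1 (192891233 to 193035775), was the faintest of the 5 genes. Its normalized counts were 18.2, 29.7, 18.2 and 18.7 in Brap LKO livers, from 20, 35, 18 and 18 reads. A single read was found in Brap F/F replicate 1 and 0 in the other 3, where 0 allows up to 3 reads by counting error alone. Per unit of depth the 91 reads of the Brap LKO livers against this 1 read gave a ratio of 82.5, with an exact 95% interval of 14.4 to 3294 that covers counting error only. Of the 11932 exon bases of this gene only 2514 are coding in its longest coding transcript.

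Lrtm2, on chromosome 6 (119315133 to 119330766), was present in every liver. It stood at 178.5, 227.7, 180.1 and 144.6 normalized counts in Brap LKO replicates 1 to 4. In Brap F/F replicates 1 to 4 it stood at 6.84, 4.07, 3.15 and 3.92, from 6, 4, 3 and 4 reads. The gene was thus detected but low in each control, and the lowest knockout liver was 21.1-fold above the highest control. The group means differed by 5.09 on the log2(normalized count + 1) scale (95% interval 4.54 to 5.63).

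Cib3, on chromosome 8 (72204335 to 72212837), was the best covered of the 5 in the controls. Its normalized counts were 528, 419, 646 and 409 in Brap LKO livers and 42.2, 38.6, 48.4 and 46.1 in Brap F/F livers. The lowest knockout liver was 8.45-fold above the highest control, and the spread within each group was small, with a coefficient of variation of 22.2% and 9.79%. The log2 difference of 3.46 (95% interval 3.10 to 3.83) came from a level that was already well above 0 without Cre.

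Rasl10b, on chromosome 11 (83409137 to 83421039), showed the smallest difference. It had 59.2, 80.7, 84.0 and 99.8 normalized counts in Brap LKO livers and 13.7, 19.3, 13.7 and 20.6 in Brap F/F livers. The groups were separated by 2.87-fold between the nearest livers, and their means differed by 2.20 on the log2 scale (95% interval 1.70 to 2.70). Of the 5 genes, then, Gldn and Syt14 were at 0 in 2 and 3 control livers, while Lrtm2, Rasl10b and Cib3 had reads in all 4.

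**Figure D1:**
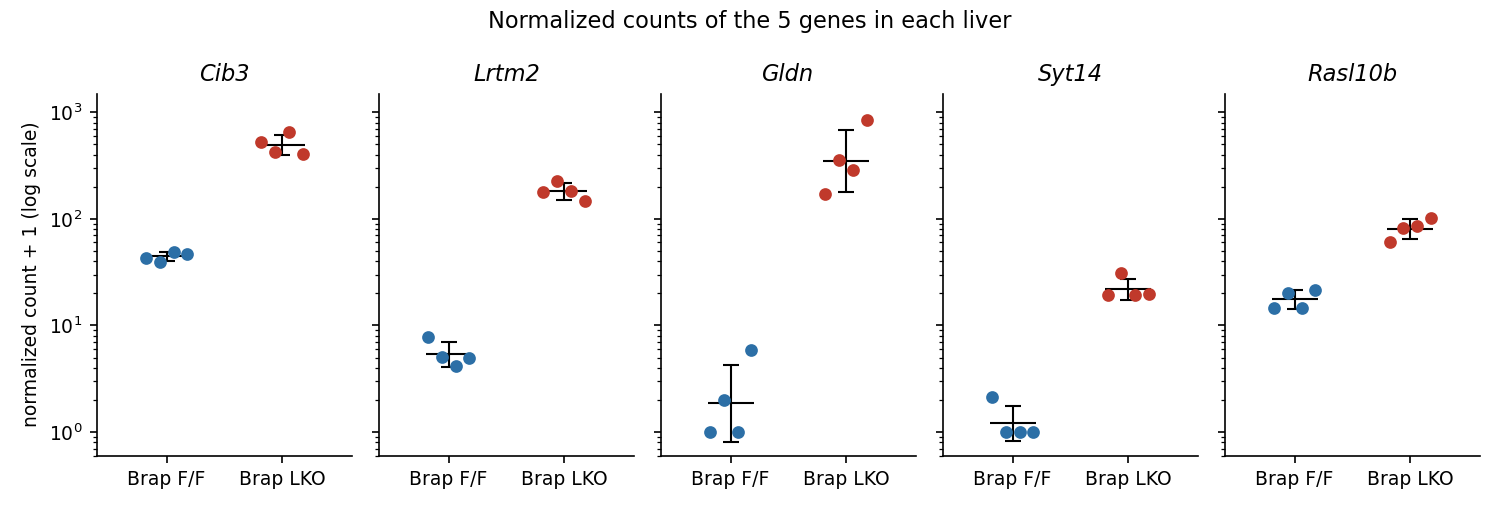
Normalized count + 1 of each gene (log axis) in the 4 Brap F/F livers (blue) and the 4 Brap LKO livers (red), 1 point per liver. Black lines give the mean and the SD of the 4 livers on the log2 scale. Each red group lies above its blue group, and Gldn has the widest spread, from 168.5 to 841 in Brap LKO livers.

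The animal numbers fall into a lower series, with 3 Brap LKO and 1 Brap F/F mice, and a higher series, with 1 and 3. As the genes were selected for groups that do not overlap, they are separated in any such split, and the values are a description. In the lower series the lowest knockout liver was above the control by 9.93-fold for Cib3, 26.1-fold for Lrtm2 and 4.33-fold for Rasl10b. In the higher series the single knockout liver was above the highest control by 8.45-fold for Cib3, 35.5-fold for Lrtm2, 172-fold for Gldn and 4.85-fold for Rasl10b. Gldn in the lower series and Syt14 in the higher series had controls at 0.

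Levels can be set side by side between genes only per length of exon. Per kb of exon, the mean normalized count in Brap LKO livers was 249 ± 55.3 (SD, n = 4) for Cib3, 88.7 ± 63.5 for Gldn, 44.5 ± 8.33 for Lrtm2, 20.2 ± 4.17 for Rasl10b and 1.78 ± 0.476 for Syt14. In this order the livers of Gldn (36.2 to 181) and Lrtm2 (35.2 to 55.5) overlapped, and no other neighbours did. In Brap F/F livers the order was Cib3 with 21.8 ± 2.13 (SD, n = 4), Rasl10b with 4.19 ± 0.915, Lrtm2 with 1.10 ± 0.393, Gldn with 0.318 ± 0.501 and Syt14 with 0.0239 ± 0.0478. There Lrtm2 and Gldn overlapped, as did Gldn and Syt14.

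Among all genes of the table the level per kb of Cib3 moved from the 56.3th percentile in Brap F/F livers to the 85.4th in Brap LKO livers. Gldn moved from the 11.8th to the 71.6th percentile and Lrtm2 from the 24.8th to the 62.9th. Rasl10b moved from the 40.6th to the 55.0th percentile, and Syt14 from the 4.04th to the 29.4th, so that it stayed among the low genes in knockout livers. With the longest coding transcript as the length the order in Brap LKO livers was the same, but the level of Cib3 became 856 per kb, since that transcript has 585 bases against 2014 bases of exon in all.

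**Figure D2:**
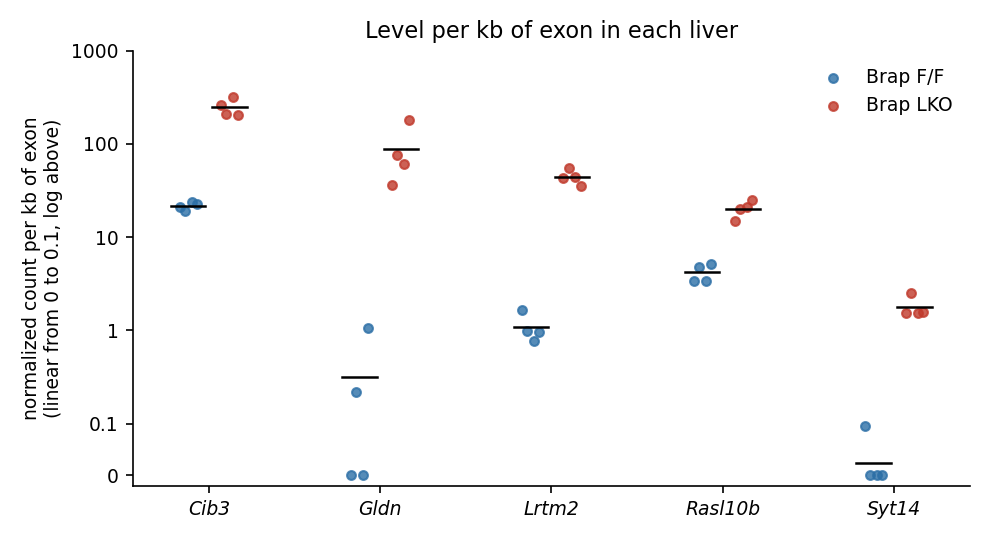
Normalized count per kb of exon (linear from 0 to 0.1, log above) of the 5 genes, ordered by their mean in Brap LKO livers. Each point is 1 liver (blue, Brap F/F; red, Brap LKO) and each black line the mean of 4. Cib3 is highest in both groups, and Syt14 stays below 3 per kb in every liver.

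Within the knockout group the 5 genes did not vary as a block. Gldn and Rasl10b were both lowest in Brap LKO replicate 1 and highest in replicate 4. Lrtm2 and Syt14 were both highest in replicate 2, and Cib3 was highest in replicate 3. All genes of a liver share its library and depth, and these orders of 4 livers are a description.

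**Figure D3:**
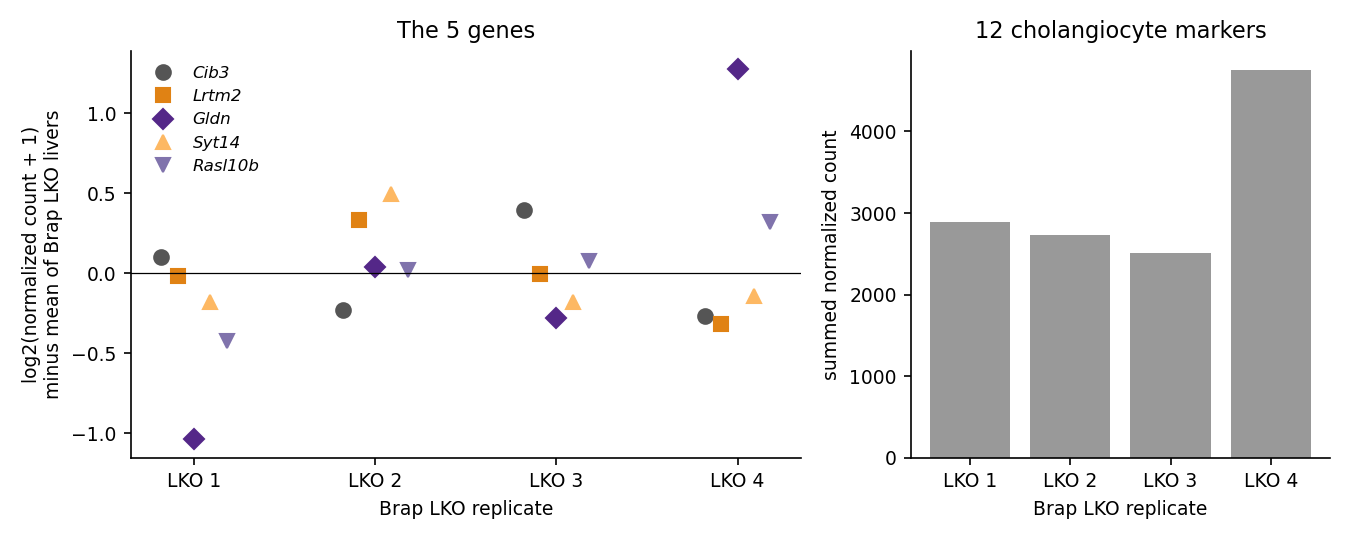
Left, log2(normalized count + 1) of each gene minus its mean over the 4 Brap LKO livers, 1 point per gene and liver. Right, summed normalized count of 12 cholangiocyte markers in the same livers. Gldn, Rasl10b and the marker sum are highest in Brap LKO replicate 4, whereas Lrtm2 and Syt14 are highest in replicate 2. The sums of glial and of smooth muscle markers, not drawn, were also highest in replicate 4.

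The genes most alike to each of the 5 over the 8 livers were named by Pearson's r of log2(normalized count + 1), a measure that the group difference dominates. Lrtm2 and Syt14 were each other's nearest gene (r = 0.995), as were Gldn and Rasl10b (r = 0.995). Cib3 was most like Gm10419 (r = 0.988), Lrtm2 (r = 0.984) and Rarg (r = 0.982), a receptor for retinoic acid. Lrtm2 was next most like Gm10419 (r = 0.990) and Cib3. Gm10419 had 18.5 ± 5.73 normalized counts (SD, n = 4) in Brap LKO livers and 0 in all 4 Brap F/F livers, and it shares 139 exon bases (2.03%) with Gm42517 on the opposite strand.

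Gldn was next most like Pwp2 (r = 0.983), a factor for ribosome assembly, and Emp2 (r = 0.980), an epithelial membrane protein. Syt14 was next most like Ifi205 (r = 0.985), an interferon-inducible gene of a family of near copies whose reads may be shared between them, and Evc (r = 0.978), a protein of the primary cilium. Rasl10b was next most like BC055308 (r = 0.979) and Tgfb1i1 (r = 0.976), an adaptor of focal adhesions. Except for Gm10419 these genes had reads in the controls, with Emp2 at 344 ± 32.0 (SD, n = 4) and 175 ± 23.3 normalized counts and Evc at 153 ± 16.1 and 52.1 ± 3.71 in Brap LKO and Brap F/F livers. The groups lay closer for Pwp2, at 537 ± 14.8 and 445 ± 21.4, and for Rarg, at 231 ± 13.1 and 161 ± 8.72. A high r therefore does not mean a difference of like size.

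Genes next to the 5 on the chromosome were examined as well. Within 100 kb of the 5 genes the annotation places 35 other genes, of which 20 were in the table and 12 could be tested. By limma 0 of the 12 passed the threshold, 2 had an unadjusted p under 0.05, edgeR called 0 and DESeq2 called 1. The neighbours' log2 fold changes lay between -0.17 and 0.41. The highest, Dmxl2 next to Gldn, was at 1687, 1319, 1919 and 1601 normalized counts in Brap LKO livers and between 1177 and 1250 in Brap F/F livers (limma adjusted p = 0.108). Tpm4, a tropomyosin gene 51193 bases from Cib3 with other genes between them, had a log2 fold change of 0.28 (limma adjusted p = 0.259).

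One neighbour too low to be tested, Cacna2d4, had reads in the Brap LKO livers only. Lrtm2 lies inside Cacna2d4, which encodes a subunit of voltage-gated calcium channels, on the opposite strand and with 0 shared exon bases. Cacna2d4 had 6.38, 12.7, 5.06 and 9.36 normalized counts in Brap LKO livers, 36 reads in all, and 0 reads in all Brap F/F livers. Against 3 reads in each control library, averaged over the 4 controls, its mean in Brap LKO livers was at least 2.67-fold higher. The use of strand in counting is not given in the sources used here, so how far reads of either gene that fall in introns or beyond annotated exons entered the other's count was not tested. None of the 5 genes shares exon bases with another annotated gene.

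Relatives and partners of the 5 genes were read from lists, together with markers of cell types. The 17 lists whose calls are counted name 260 genes other than the 5, of which 210 were in the table and 158 could be tested. Of these 158 genes 4 (Cftr, Rrad, Bicc1 and Pdgfrb) were higher in Brap LKO livers and 0 lower, against 0.664% and 0.104% of all genes tested. The lists were chosen with earlier results of these data known.

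Among the relatives of Gldn, which has an olfactomedin domain, 9 of 12 listed genes were tested and 0 passed the threshold by limma, with 4 at an unadjusted p under 0.05, 0 called by edgeR and 2 by DESeq2 (Adgrl2 and Olfml3). The most abundant, the latrophilin Adgrl2, was between 2084 and 2427 normalized counts in Brap LKO livers and between 1699 and 1898 in Brap F/F livers, without overlap (limma adjusted p = 0.0628). The median log2 fold change of the list was 0.32. Of the genes of the node of Ranvier, where gliomedin acts, 7 of 15 were tested and 0 passed by limma (1 at an unadjusted p under 0.05, 0 by edgeR and 0 by DESeq2), with a median of 0.25. Nfasc, the neurofascin to which gliomedin binds, was between 12.8 and 21.8 normalized counts in Brap LKO livers and between 6.31 and 56.9 in Brap F/F livers, and its partner Nrcam had at most 3 reads in every liver. Ank3, the ankyrin of the node and the most abundant gene of this list, had a log2 fold change of 0.10 (limma adjusted p = 0.781).

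Of the other synaptotagmins 7 of 16 listed genes were tested and 0 passed by limma, with 3 at an unadjusted p under 0.05 and 0 called by edgeR or DESeq2. Their median log2 fold change was 0.42. Syt1, the calcium sensor of fast synaptic release, was the most abundant and lay between 555 and 623 normalized counts in Brap LKO livers and between 388 and 678 in Brap F/F livers, so that the groups overlapped. Syt5, Syt6, Syt8 and Syt13 had at most 3 reads in every liver. Among further genes of synaptic vesicle release 19 of 29 were tested, and 0 passed by limma (3 at an unadjusted p under 0.05, 0 by edgeR and 0 by DESeq2), with a median of 0.27 that was 0.02 at a minimum mean of 20. The chaperone Dnajc5 led this list with a log2 fold change of -0.11 (limma adjusted p = 0.417).

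Among neuronal membrane proteins with leucine-rich repeats, the class of Lrtm2, 15 of 34 were tested and 0 passed by limma. An unadjusted p under 0.05 was found for 4, edgeR called 0 and DESeq2 called 3 (Amigo1, Amigo2 and Flrt2). Their median of 0.16 became -0.44 at a minimum mean of 20 and -0.01 with quantile normalization. Lrtm1, the relative nearest in name and the most abundant of the list, was between 64.5 and 357 normalized counts in Brap LKO livers and between 82.4 and 675 in Brap F/F livers. Around Cib3 the list of CIB proteins and of the hair cell transduction complex had 3 of 9 genes tested, of which 0 passed by limma (1 at an unadjusted p under 0.05, 0 by edgeR and 0 by DESeq2). Their median of -0.13 became 0.03 when all livers were set to the same total. Cib1, the widely expressed member, lay between 773 and 915 normalized counts in Brap LKO livers and between 842 and 1035 in Brap F/F livers.

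Of the RAS-like small GTPases 16 of 26 were tested, and 1 rose by limma (4 at an unadjusted p under 0.05, 0 by edgeR and 1, Rrad, by DESeq2). The filter of low counts used with edgeR removed Rrad, so edgeR did not test it. Rrad, known from muscle as an inhibitor of voltage-gated calcium channels, had 11.8, 8.49, 11.1 and 5.20 normalized counts in Brap LKO livers and 1.14, 2.03, 1.05 and 1.96 in Brap F/F livers. Its log2 fold change of 1.97 ± 0.36 (SE, limma adjusted p = 0.049) rests on few reads. It reached the minimum mean only through the Brap LKO livers, and without that filter the limma adjusted p was 0.0545. The call stayed past the threshold in 1 of 8 fits that left out a liver, that without Brap F/F replicate 4. Rheb, the most abundant of the list, had a log2 fold change of -0.13 (limma adjusted p = 0.373), and the median over the list was 0.15.

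Of the repressor REST and its partners none passed the threshold. All 14 listed genes were tested and 0 passed by limma, with 0 at an unadjusted p under 0.05 and 0 called by edgeR or DESeq2. Rest itself lay between 829 and 950 normalized counts in Brap LKO livers and between 909 and 998 in Brap F/F livers (log2 fold change -0.13, limma adjusted p = 0.37), and Ctdsp1, the phosphatase that led the list, had -0.06. Of 23 listed neuronal genes that REST represses 15 were in the table and 6 were tested, and 0 passed by limma (1 at an unadjusted p under 0.05, 0 by edgeR and 0 by DESeq2). Tubb3, Stmn2, Chgb, Scg2, Grin1 and Celsr3 had at most 3 reads in every liver, and Rab3a, the most abundant, had a log2 fold change of 0.01.

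**Figure D4:**
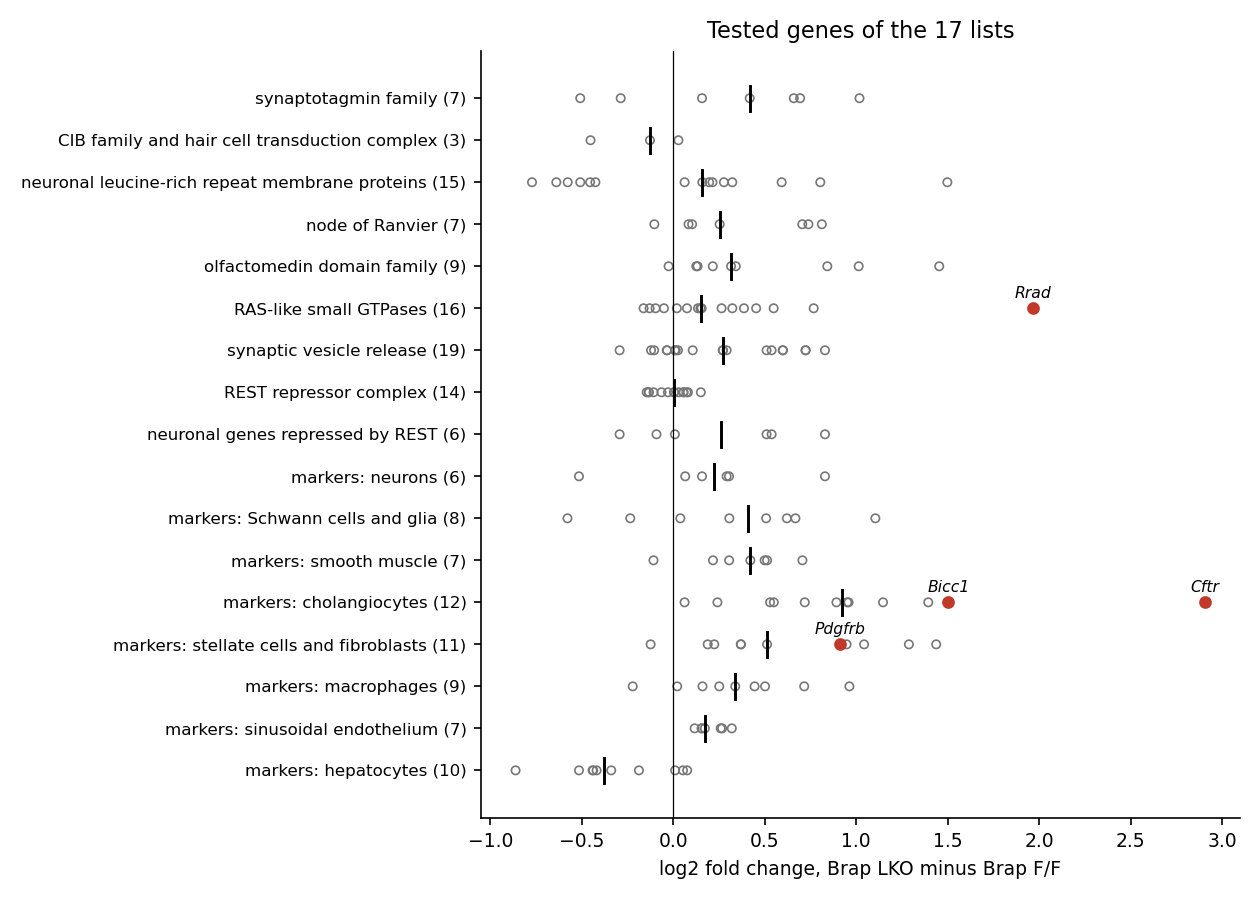
Log2 fold change (Brap LKO minus Brap F/F) of the tested genes of 17 lists, 1 circle per gene, with the number tested in parentheses and a black line at the median. Red points are the genes past the limma threshold, namely Rrad, Bicc1, Cftr and Pdgfrb. The other circles of the neuronal and muscle lists lie between -1 and 2.

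Of 24 neuronal markers 14 were in the table and 6 were tested, with 0 past the threshold by limma, 0 at an unadjusted p under 0.05 and 0 called by edgeR or DESeq2. Tubb3, Stmn2, Nefm, Elavl3, Dcx, Slc17a7 and Gad2 had at most 3 reads in every liver. Summed over the 14 markers the level was between 634 and 702 normalized counts in Brap LKO livers and between 473 and 748 in Brap F/F livers, and most of it was Syt1. Of 14 markers of Schwann cells and other glia 8 were tested, and 0 passed by limma (2 at an unadjusted p under 0.05, 0 by edgeR and 1, Pmp22, by DESeq2). S100b had at most 3 reads in every liver, and the sum over 12 markers was between 325 and 385 in Brap LKO livers and between 226 and 346 in Brap F/F livers.

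Genes of striated muscle are given by their levels, and calls among them are not counted. Acta1, Actc1, Myh4, Myh7, Tnnt3, Tnni2, Tnnc2, Actn2, Actn3, Cacna1s and Myl1, actins, myosins, troponins, actinins and the calcium channel of striated muscle, had at most 3 reads in every liver. Neb, which encodes the thin filament protein nebulin, was between 570 and 938 in Brap LKO livers and between 476 and 780 in Brap F/F livers. Of 9 smooth muscle markers 7 were tested and 0 passed by limma (2 at an unadjusted p under 0.05, 0 by edgeR and 1, Smtn, by DESeq2), with a sum between 779 and 957 in Brap LKO livers and between 587 and 808 in Brap F/F livers.

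Of the markers of bile duct cells, the cholangiocytes, all 12 were tested. All 12 had a log2 fold change above 0, with a median of 0.92, against 48.0% above 0 over all genes tested. Most tested markers of the other non-hepatocyte lists were above 0 as well. These were 7 of 7 for sinusoidal endothelium, 8 of 9 for macrophages and 6 of 7 for smooth muscle. For Schwann cells and glia they were 6 of 8, for neurons 5 of 6, and for hepatocytes 3 of 10. By limma 2 of the 12 cholangiocyte markers rose, 9 had an unadjusted p under 0.05, edgeR called 1 (Bicc1) and DESeq2 called 4 (Bicc1, Cd24a, Cftr and Epcam). The filter of low counts used with edgeR removed Cftr, so edgeR did not test it. Cftr, the chloride channel of the duct, had 16.4, 16.1, 6.07 and 17.7 normalized counts in Brap LKO livers and 0, 1.02, 2.10 and 0.98 in Brap F/F livers (log2 fold change 2.91 ± 0.47, SE, limma adjusted p = 0.0331), and it reached the minimum mean only through the Brap LKO livers. Without that filter the limma adjusted p was 0.0263, with quantile normalization 0.0594. Bicc1, an RNA-binding protein of the ducts, had 236, 182, 248 and 431 normalized counts in Brap LKO livers and between 82.0 and 113 in Brap F/F livers (log2 fold change 1.50 ± 0.24, SE, limma adjusted p = 0.0313). Cftr was lost when replicate 1, 2 or 4 of Brap LKO or replicate 1 or 2 of Brap F/F was left out (limma adjusted p up to 0.133). Bicc1 was lost when replicate 1 or 3 of Brap LKO or replicate 1, 2 or 3 of Brap F/F was left out (limma adjusted p up to 0.102). The 12 markers summed to 2889, 2725, 2510 and 4752 normalized counts in Brap LKO livers and to 1975, 1586, 1493 and 2511 in Brap F/F livers, with Spp1 the largest. None of the 12 was at 0 in all livers of a group, and the highest sum, like the highest Gldn and Rasl10b, was in Brap LKO replicate 4, with Krt19 at 68.6 there against at most 41.0 in the other livers. In the other 3 knockout livers the order of the sum was not that of Gldn. The summed markers of Schwann cells and glia (385) and of smooth muscle (957) were also highest in Brap LKO replicate 4. Among Brap LKO livers the stellate cell sum was highest in replicate 3 (13274), as was Cib3. The macrophage sum (10174) and the sinusoidal endothelium sum (9080) were highest in Brap LKO replicate 1. The part of bile duct cells in the level of the 5 genes was not tested.

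Markers of stellate cells and fibroblasts summed to between 8732 and 13274 normalized counts in Brap LKO livers and to between 5761 and 9876 in Brap F/F livers. Of 11 tested markers 10 had a log2 fold change above 0, the median was 0.51, and Pdgfrb, the PDGF receptor of these cells, rose (0.91 ± 0.17, SE, limma adjusted p = 0.0494), a call that held in 1 of 8 fits that left out a liver, that without Brap F/F replicate 4. An unadjusted p under 0.05 was found for 6 of the 11, DESeq2 called 5 (Col1a1, Col1a2, Col3a1, Lum and Pdgfrb), and edgeR called only Lum, not Pdgfrb (edgeR adjusted p = 0.0512). Of 9 macrophage markers 0 passed by limma (2 at an unadjusted p under 0.05, 0 by edgeR and 1, Lyz2, by DESeq2), with a median of 0.34. Of 7 markers of sinusoidal endothelium 0 passed by limma (0 at an unadjusted p under 0.05, 0 by edgeR and 0 by DESeq2), with a median of 0.17. Of 10 hepatocyte markers 0 passed by limma (2 at an unadjusted p under 0.05, 0 by edgeR and 0 by DESeq2), with a median of -0.38 that was -0.22 with the same total per liver and -0.05 with quantile normalization, and all were abundant in every liver. The part of these cells in the level of the 5 genes was not tested either.

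Among the 4 listed genes that rose, Rrad shares 8.94% of its exon bases with a gene on the opposite strand, Bicc1 4.69% and Cftr 1.66%, so that antisense reads could be part of their counts.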

How the data were processed

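Liver RNA was analysed for 8 mice, 4 Brap LKO and 4 Brap F/F, grouped by the labels. The authors purified RNA with TRIzol, prepared libraries with a NuGEN kit for mRNA, and sequenced single ends of 50 bases. The submitters' processing notes name mm10 and STAR 2.6.0c. The counting tool, annotation release and strand setting are not given in the sources used here. The deposited signal is the read count of each gene divided by a DESeq2 size factor per liver. All values (100%) were whole multiples of 1 read within 0.001, so reads were recovered. The authors' own DESeq2 comparison (mean, log2 fold change, standard error, p-value and adjusted p-value) was not used.

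Groups were compared with limma 3.58.1 in R 4.3.3 (lmFit, eBayes with trend) after adding 1 and taking log2, over 15352 genes whose mean normalized count was at least 5, at a Benjamini-Hochberg adjusted p of 0.05. This scale understates the fold change of low genes. The count tests edgeR 4.0.16 (quasi-likelihood) and DESeq2 1.42.0 on the recovered reads were alternatives. With edgeR, 14037 genes were tested after its own filter of low counts. The fits were tested on simulated data. A count of 0 allows up to 3 reads, which covers counting error only, since molecules were not tagged. Exons and neighbours came from GENCODE vM21 (mm10) and promoters from RefSeq (GRCm38.p6). The genes named are the 5, for each list the genes past the threshold, the most abundant gene and defining markers at 0, neighbours within 100 kb, the 3 genes most alike to each of the 5, and Brap. Nfasc, Lyz2, Krt19 and other genes outside this rule were chosen after their values were seen. The 5 genes and all lists were chosen with earlier results of these data known. One gene of the striated muscle list is not reported here, so calls are not counted over that list.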

Additional observations from a re-analysis of the deposited data

Results flagged for a closer look

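In a group of 4 livers a value was set apart when its gap to the nearest other liver was larger than the 95% limit of Dixon's gap test. Of 22 groups examined, 3 held such a value, and chance gives about 1 in 20 groups. Syt14 was at 29.7 normalized counts in Brap LKO replicate 2, against 18.2 to 18.7 in the other Brap LKO livers. In Brap F/F replicate 1 it was at 1.14 against 0, a difference of 1 read. Cftr was at 6.07 in Brap LKO replicate 3, against 16.1 to 17.7 in the other Brap LKO livers.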

How the results depend on the processing

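The direction of the 5 genes was fixed by their selection, so only the size of their log2 fold change is given under the alternatives, of which Syt14 could not be fitted at a minimum mean of 20. It lay between 3.33 and 3.62 for Cib3, 4.30 and 5.36 for Lrtm2, 5.83 and 8.27 for Gldn, 2.29 and 6.07 for Syt14 and 1.97 and 2.39 for Rasl10b. A pseudocount of 5 gave 4.30 for Lrtm2, 5.83 for Gldn and 2.29 for Syt14, and Syt14 was at 4.98 with a pseudocount of 0.5, 5.81 by edgeR and 6.07 by DESeq2.

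The numbers of genes called moved more. Higher and lower genes numbered 459 and 20 with the same total per liver, which moved the median of all genes to 0.15, 448 and 159 by DESeq2, 62 and 16 with quantile normalization, 73 and 9 at a minimum mean of 20 and 100 and 12 by edgeR. Leaving out 1 liver gave from 11 (without Brap LKO replicate 1) to 178 higher and from 4 (without Brap F/F replicate 2) to 54 lower genes (both without Brap F/F replicate 4). Genes of the lists past the threshold, 4 in the fit reported, numbered 2 with a pseudocount of 0.5, quantile normalization, no trend or edgeR, 1 at a minimum mean of 20, 12 with the same total, 7 with the animal series as a covariate, 20 by DESeq2 and from 0 (when replicate 1 of Brap LKO or replicate 1 or 2 of Brap F/F was left out) to 10 (without Brap F/F replicate 4) with a liver left out. The cause was not tested. Bicc1 stayed past the threshold in 14 of 20 alternatives, Cftr in 11 of 18, Pdgfrb in 8 of 20 and Rrad in 5 of 18. Cftr and Rrad were too low to be tested by edgeR or at a minimum mean of 20.

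With the replicate number as a block, 80 genes were higher, 15 lower and 7 genes of the lists past the threshold. Whether same-numbered livers shared a litter or a batch is not stated in the labels. Their deviations from the group means correlated at -0.13, 0.00, 0.20 and 0.29 for replicates 1 to 4. With 4 livers per group these values cannot settle it. Reads limit Gldn and Syt14, with 6 and 1 control reads in all.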
